A study of Homo sapiens with 9 samples.

Results

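The genes described here lay on the same side of the control with both of 2 short hairpin RNAs against FOSL1 in EGI-1 cells, a human cholangiocarcinoma (bile duct cancer) line. They were selected on measured values: all 6 libraries with a FOSL1 hairpin had to lie above, or all below, the 3 control libraries in CPM, the read count of a gene after scaling each library to the same total. Of 12814 genes tested, 1238 (9.66%) met this rule, with 675 (5.27%) above and 563 (4.39%) below every control library. In edgeR's quasi-likelihood test of the mean of both hairpins against the control, 797 of all genes tested (6.22%) passed a Benjamini-Hochberg adjusted p under 0.05, 416 higher (3.25%) and 381 lower (2.97%). The 591 genes that met the rule and passed this test, 326 higher and 265 lower, are called shared-response genes below. They were 74.2% of the genes called, and the other 206 calls had overlapping libraries. The remaining 647 separated genes did not pass, and 525 of them had an unadjusted p under 0.05. Over all 12814 genes tested, 2753 had an unadjusted p under 0.05, the background for the list counts at that limit below. Because the rule and the call used the comparison with the control, fold changes against it are given as a description with no test, and tests are given for the difference between the hairpins alone.

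The libraries were 3 of a control hairpin (GFPsh), 3 of FOSL1sh3 and 3 of FOSL1sh10, all in EGI-1 cells with a tetracycline-inducible hairpin. Every group, the control included, had received doxycycline at 2 µg/ml for 4 days and was harvested 24 h after seeding. Nothing in the labels says whether the 3 libraries of a group came from separate cultures, or whether a line was a clone, so p-values reflect the spread among these libraries, possibly technical spread alone. RNA was sequenced by a low-input method (MARS-seq), and library totals ran from 6893026 to 10604251 counts. Of the epithelial markers, all 7 were detected, with a summed level of 10686 to 11574 CPM in GFPsh, 11973 to 13338 CPM in FOSL1sh3 and 10698 to 12675 CPM in FOSL1sh10. Markers of leukocytes summed to 2.92 to 4.51 CPM in GFPsh, 5.22 to 6.76 CPM in FOSL1sh3 and 5.12 to 8.84 CPM in FOSL1sh10. Nearly all of this was CD14 (2.92 to 8.74 CPM), while CD3E and CD68 (2 of 5) were at 0 and PTPRC and LYZ had 2 and 1 counts in all. Markers of fibroblasts and endothelium summed to 2.92 to 4.73 CPM, 3.89 to 7.62 CPM and 6.88 to 8.54 CPM in the same order. Nearly all of this was COL1A1 (2.13 to 6.85 CPM) and PECAM1 (0.275 to 2.34 CPM). COL1A2 and VWF had 1 and 14 counts in all, and 2 of 6 (DCN and PDGFRB) were at 0. Hepatocyte markers reached at most 0.786 CPM, with 1 of 4 (CYP3A4) at 0. The part of the higher leukocyte, fibroblast and endothelial sums in the results was not tested. In bulk RNA, fewer cells of a type and less RNA per cell cannot be told apart.

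FOSL1 encodes FRA-1, a member of the FOS family of leucine zipper proteins. FRA-1 has to pair with a JUN protein to form the transcription factor AP-1, which binds a short palindromic DNA element in promoters and enhancers. FOSL1 is induced through RAS and ERK signalling, and in carcinoma cells it is known for roles in proliferation, invasion and the expression of proteases and cytokines. Bile duct cells, from which cholangiocarcinoma arises, are keratin-rich epithelial cells that can make inflammatory mediators.

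The target came first. FOSL1 (chromosome 11, 65892049 to 65900573 in hg38, as are all gene positions here) had 303, 257 and 182 CPM under the control hairpin, 72.3, 70.3 and 44.9 CPM under FOSL1sh3, and 70.9, 57.1 and 65.8 CPM under FOSL1sh10. All 6 hairpin libraries were low, and the groups did not overlap. The log2 fold change of the mean was -1.96 (SE 0.16). Between the hairpins FOSL1 differed by -0.05 on the log2 scale (SE 0.19, adjusted p = 0.90, edgeR), so a difference in the depth of knockdown was not detectable. The gap of FOSL1 between the nearest hairpin library and the nearest control was 1.33 log2 units.

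The shared response was moderate in size. Over the 591 genes the log2 fold change had a median size of 0.74, and 153 genes reached 1, 95 of them higher and 58 lower. Gaps were narrower than that: 91 genes had a gap of at least 0.5 log2 units between nearest libraries (62 higher, 29 lower), and 12 had a gap of at least 1 (7 higher, 5 lower). The higher genes had median log2 fold changes of 0.75 with FOSL1sh3 and 0.75 with FOSL1sh10, and the lower genes of -0.78 and -0.62. The 2 comparisons share the control libraries. Set against the control separately, 198 of the 591 passed with both hairpins, 259 with FOSL1sh3 alone, 110 with FOSL1sh10 alone and 24 with neither. The size of the set rested on the control libraries: without GFPsh replicate 1, 2 or 3 it was 277, 412 or 285 genes, of which 257, 326 and 243 were among the 591.

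The genes described by gap were limited to those with a mean of at least 30 counts, which leaves out some scarcer genes with gaps of at least 1 log2 unit: S100A9 (1.90), SAMSN1 (1.69), GJA5 (1.08) and FBXO2 (just above 1) among the higher and LINC01508 (1.80) and TESC (1.36) among the lower, chosen here after their values were seen. Gaps of these scarcer genes are uncertain, because some of their libraries lay near or under the level of 3 counts (0.283 to 0.435 CPM). SAMSN1 was at 0.113 to 0.276 CPM in the controls, and LINC01508 at 0.127 to 0.411 CPM with the hairpins. Among the higher genes above the limit of 30 counts the widest gap was in ITPK1, an inositol phosphate kinase (chromosome 14, 92936914 to 93116320). It was at 44.8, 51.2 and 43.6 CPM in GFPsh, 160, 146 and 176 CPM with FOSL1sh3, and 124, 128 and 136 CPM with FOSL1sh10. Every hairpin library thus lay far above the controls, and the log2 fold change was 1.63 (SE 0.13). L1CAM, a neural cell adhesion molecule also found on invasive carcinoma cells (chromosome X, 153861514 to 153886174), was at 6.90, 5.74 and 7.49 CPM in GFPsh, 18.5, 20.2 and 27.5 CPM with FOSL1sh3, and 20.1, 22.3 and 17.1 CPM with FOSL1sh10. SELENOM, a selenoprotein of the endoplasmic reticulum, went from 9.00 to 11.1 CPM in the controls to 23.9 to 32.9 CPM in the 6 hairpin libraries. CALML5, a calmodulin-like protein of differentiating keratinocytes, went from 5.66 to 7.31 CPM to 14.6 to 26.2 CPM. These 3 genes had even changes: the hairpins differed by 0.15 (SE 0.19), -0.18 (SE 0.17) and 0.14 (SE 0.21) on the log2 scale.

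TXNIP, the inhibitor of thioredoxin that also limits glucose uptake, was held in a narrow range on both sides. It was at 40.4, 44.7 and 42.4 CPM in GFPsh and at 85.5 to 105 CPM in the 6 hairpin libraries (log2 fold change 1.15, SE 0.12). CYBRD1, a ferric reductase of the plasma membrane, had controls at 11.2 to 13.0 CPM and hairpin libraries at 23.5 to 30.1 CPM. VAMP3, a SNARE protein of recycling endosomes, was at 59.98 to 67.7 CPM in the controls and 120 to 167 CPM with the hairpins. DMAC1, an assembly factor of mitochondrial complex I, was at 68.3 to 75.2 CPM in the controls, 175 to 205 CPM with FOSL1sh3 and 136 to 157 CPM with FOSL1sh10. Its hairpin difference of 0.40 (SE 0.13) just missed the threshold (adjusted p = 0.0515, edgeR). SEC14L2, a lipid transfer protein, ANXA8, an annexin, and ZC3H12A, the ribonuclease regnase-1 that degrades cytokine mRNAs, completed the 12 widest gaps above the limit of 30 counts, with log2 fold changes of 1.01 (SE 0.14), 1.17 (SE 0.24) and 0.97 (SE 0.19). ANXA8 has near-identical copies that can share reads, so its value is uncertain.

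Below the controls, IL1RN followed FOSL1 among genes above that limit. IL1RN encodes the interleukin-1 receptor antagonist, which blocks signalling by interleukin-1 (chromosome 2, 113107214 to 113134016). It was at 69.1, 71.0 and 59.6 CPM in GFPsh, 18.9, 18.8 and 23.0 CPM with FOSL1sh3, and 23.4, 24.9 and 23.7 CPM with FOSL1sh10. The groups were 1.26 log2 units apart at their nearest libraries, and the log2 fold change was -1.59 (SE 0.12). RGS2, a brake on G protein signalling, was at 35.0, 35.8 and 25.8 CPM in GFPsh, 12.3, 11.1 and 3.69 CPM with FOSL1sh3, and 10.98, 8.59 and 7.64 CPM with FOSL1sh10. It changed by -1.82 and -1.83 with the 2 hairpins. BARX2, a homeobox factor, had 7.05 to 10.1 CPM in the controls and 2.16 to 3.57 CPM in the hairpin libraries, and LINC00707, a long non-coding RNA, had 29.9 to 52.4 CPM against 11.1 to 18.5 CPM.

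CEACAM6, a glycoprotein of gut and biliary carcinoma cells, was at 78.9, 89.9 and 81.5 CPM in GFPsh, 23.7, 52.2 and 28.6 CPM with FOSL1sh3, and 33.5, 42.7 and 44.8 CPM with FOSL1sh10. PRSS23, a secreted serine protease, had tight groups, with 350 to 385 CPM in the controls and 171 to 222 CPM with the hairpins. OLFML2A, C16orf87 and CBLL1 had log2 fold changes of -1.07 (SE 0.18), -1.09 (SE 0.18) and -0.83 (SE 0.15). CBLL1, an E3 ligase linked to mRNA methylation, shares an exon with an antisense gene, and its reads cannot be told apart from those of that gene under counting without strand. The plot of the widest gaps shows each library of these genes.

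**Figure D1:**
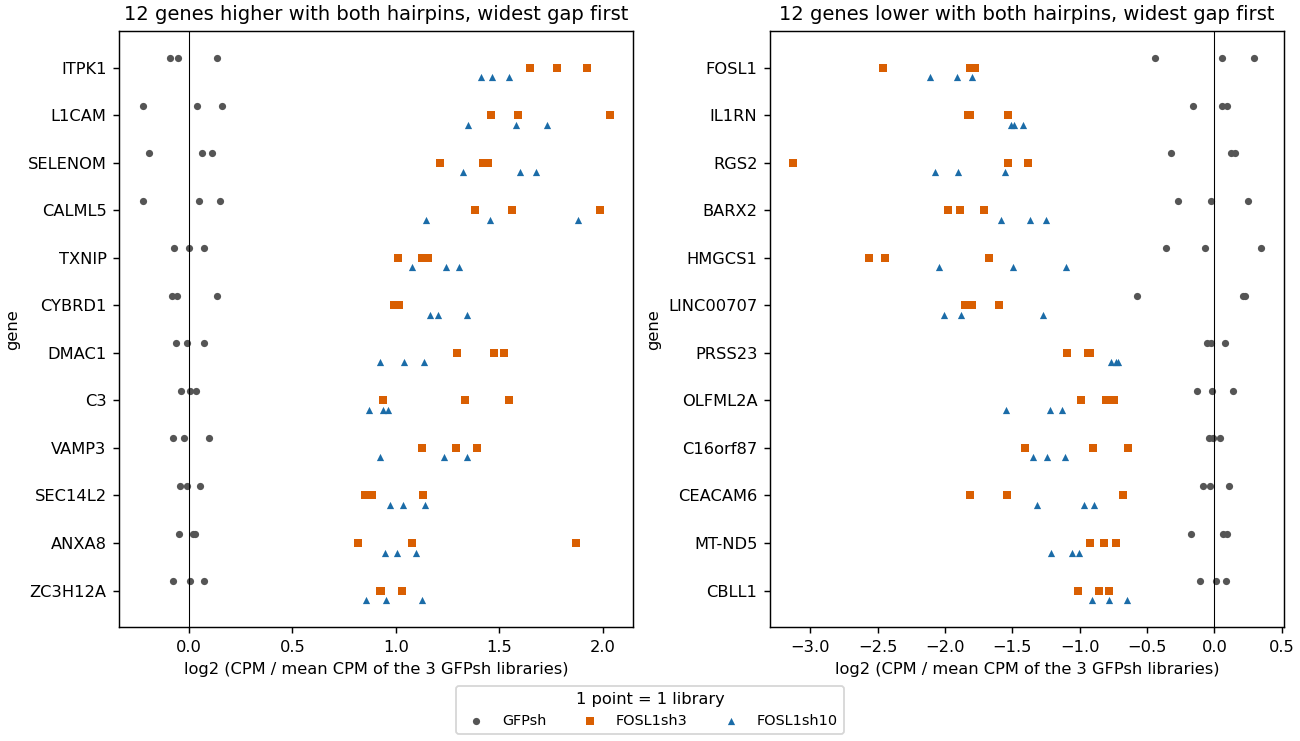
Values of the 24 shared-response genes with the widest gaps among those with a mean of at least 30 counts, as the log2 ratio of each library's CPM to the mean of the 3 GFPsh libraries, for 12 higher (left) and 12 lower genes (right). Each point is 1 library; the hairpin libraries of ITPK1 lie at 124 to 176 CPM against 43.6 to 51.2 CPM in the controls, and those of FOSL1 at 44.9 to 72.3 CPM against 182 to 303 CPM.

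No other AP-1 gene was called lower. Of 14 AP-1 genes tested, FOSL1 was called lower and FOS and JUNB higher, while 11 were not called (median log2 fold change 0.10, against -0.01 over all genes tested). FOS, the founding member of the FOS family, was at 3.31, 5.29 and 5.29 CPM in GFPsh, 13.1, 16.4 and 23.4 CPM with FOSL1sh3, and 10.7, 5.77 and 12.2 CPM with FOSL1sh10. JUNB, a JUN partner, was at 40.6 to 42.5 CPM in the controls, 82.4 to 107 CPM with FOSL1sh3 and 46.0 to 61.3 CPM with FOSL1sh10. Both were higher with FOSL1sh3 than with FOSL1sh10, by 0.88 (SE 0.27, adjusted p = 0.042) and 0.76 (SE 0.15, adjusted p = 0.00271) on the log2 scale in edgeR's test. JUNB shares exon sequence with HOOK2 on the opposite strand. Among 16 genes of ERK output and feedback, TMEM158 alone was called, at 27.2 to 33.2 CPM in the controls, 5.03 to 11.3 CPM with FOSL1sh3 and 14.98 to 18.8 CPM with FOSL1sh10. TMEM158 is known as a gene induced by active RAS.

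Genes of cholesterol synthesis were lower together. This pathway builds cholesterol from acetyl-CoA, and its enzymes are switched on by the SREBP factors when sterols are short. Of 25 tested, 13 were called lower, none higher, and 9 of the 13 were shared-response genes (median log2 fold change -0.43). HMGCS1, which makes HMG-CoA early in the pathway, was at 47.3, 63.0 and 38.7 CPM in GFPsh, 9.13, 15.6 and 8.40 CPM with FOSL1sh3, and 23.1, 17.6 and 12.02 CPM with FOSL1sh10 (log2 fold change -1.85, SE 0.21). Its hairpin libraries were all under the lowest control, and the hairpins did not differ at the threshold (-0.67, SE 0.26, adjusted p = 0.104, edgeR). INSIG1, which retains SREBP in the endoplasmic reticulum and is itself an SREBP target, was at 57.9 to 84.0 CPM in the controls, 20.7 to 32.6 CPM with FOSL1sh3 and 41.1 to 44.4 CPM with FOSL1sh10. STARD4, a cholesterol carrier, changed by -1.02 (SE 0.25), and the sterol oxidase MSMO1 by -0.84 (SE 0.12), with 162 to 209 CPM in the controls and 86.4 to 114 CPM with the hairpins. Without GFPsh replicate 1 or 3 the list held 7 or 6 lower calls, and that of STARD4 ended (-1.03 and -0.90). In edgeR 17 of the list were lower and 0 higher at an unadjusted p under 0.05, and DESeq2 called 14 lower and 0 higher. Of all 12814 genes tested, 2753 passed that unadjusted limit in either direction, and DESeq2 called 957.

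Fatty acid genes were divided. Among 15 tested, 3 were called lower and 1 higher (median -0.27). Of the 3 lower, 2 were shared-response genes. ELOVL6 had overlapping libraries, with log2 fold changes of -0.93 with FOSL1sh3 and -0.09 with FOSL1sh10. SCD, the desaturase that makes oleate, was at 231, 221 and 253 CPM in GFPsh, 136, 123 and 108 CPM with FOSL1sh3, and 154, 149 and 177 CPM with FOSL1sh10. ELOVL5, an elongase of polyunsaturated fatty acids, changed by -0.70 (SE 0.15), while FADS3, a desaturase, changed by 0.57 (SE 0.14). The call of ELOVL5 ended without GFPsh replicate 1 or 3 (-0.69 and -0.65), and that of FADS3 without GFPsh replicate 2 or 3 or FOSL1sh10 replicate 1 or 3 (0.47 to 0.56). The number lower fell to 1 without GFPsh replicate 1 or 3 and to 2 without GFPsh replicate 2 or FOSL1sh10 replicate 1 or 2.

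Mitotic genes formed the largest group of lower genes among the lists. Of 43 tested, 18 were called lower and none higher, and 17 of the 18 were shared-response genes (median -0.49). SPC25, a kinetochore subunit (chromosome 2, 168834132 to 168913371), was at 66.3, 61.4 and 61.6 CPM in GFPsh, 41.2, 44.9 and 26.0 CPM with FOSL1sh3, and 33.4, 28.95 and 27.1 CPM with FOSL1sh10. CCNB1, the cyclin that drives entry into mitosis, was at 234 to 271 CPM in the controls, 104 to 159 CPM with FOSL1sh3 and 151 to 187 CPM with FOSL1sh10. HMMR, a spindle protein, changed by -0.85 (SE 0.18) and CCNA2, cyclin A2, by -0.75 (SE 0.17). In each of these genes the highest hairpin library lay under the lowest control. CCNA2 shares exon sequence with EXOSC9 on the opposite strand, and its call, like that of HMMR, ended without GFPsh replicate 1 (-0.65 and -0.78). Calls in the list numbered 9 without GFPsh replicate 1 and 10 without GFPsh replicate 3. At an unadjusted p under 0.05 in edgeR, 33 of the list were lower and 0 higher, and DESeq2 called 19 lower and 0 higher. Of all 12814 genes tested, 2753 passed that unadjusted limit in either direction.

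DNA replication genes had fewer calls than mitotic genes. Of 43 tested, 4 were lower and none higher (median -0.25), and all 4 were shared-response genes. Of all genes tested, 2.97% were called lower. All 6 hairpin libraries lay below every control in 11 of the 43, against 4.39% of all genes tested. POLE2, a subunit of the leading-strand polymerase, was at 20.7 to 30.2 CPM in the controls, 5.85 to 11.3 CPM with FOSL1sh3 and 10.4 to 16.9 CPM with FOSL1sh10 (log2 fold change -1.26, SE 0.20). Calls for POLD3, RFC5 and RRM1, at -0.64, -0.56 and -0.50, each ended in at least 5 of the alternatives tried, those without GFPsh replicate 1 included (-0.59, -0.40 and -0.36). RFC5 shares exon sequence with WSB2 on the opposite strand. In edgeR 17 of the list were lower and 0 higher at an unadjusted p under 0.05, and DESeq2 called 6 lower and 0 higher. The list held 8 calls with no expression filter and 6 without FOSL1sh3 replicate 2, against 2 with library totals as the scale, with the GC and length trend removed, or without GFPsh replicate 2 or any 1 FOSL1sh10 library. It held 1 call without GFPsh replicate 1 or 3. KPNA2, a nuclear import receptor abundant in dividing cells, was among the lower genes with the highest CPM, at 505 to 730 CPM in the controls and 312 to 466 CPM with the hairpins, and its call ended without GFPsh replicate 3 (-0.54).

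Few p53 targets and cell cycle inhibitors were called. Of 20 tested, 2 were lower and 1 higher, against 2.97% lower and 3.25% higher over all genes tested. CDKN1A and GADD45B were shared-response genes. CCNG1, the other lower gene, had overlapping libraries, with log2 fold changes of -2.14 with FOSL1sh3 and -0.27 with FOSL1sh10. CDKN1A, the inhibitor p21, was at 252, 235 and 262 CPM in GFPsh, 123, 109 and 123 CPM with FOSL1sh3, and 200, 234 and 216 CPM with FOSL1sh10. The highest FOSL1sh10 library lay directly beside the lowest control. Its change was larger with FOSL1sh3 by -0.87 (SE 0.13, adjusted p = 0.000381, edgeR). GADD45B, a stress-induced regulator of growth arrest, was at 35.6 to 40.8 CPM in the controls and 52.3 to 69.6 CPM with the hairpins.

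Acute-phase and complement genes were the list with the highest share called. These genes encode proteins that the liver and inflamed epithelia secrete after signals such as interleukin-6 and interleukin-1. Of 11 tested, 7 were higher and none lower, and 6 of the 7 were shared-response genes (median 1.11). C3, the central complement protein (chromosome 19, 6677704 to 6730562), was at 170, 166 and 161 CPM in GFPsh, 417, 317 and 484 CPM with FOSL1sh3, and 303, 322 and 317 CPM with FOSL1sh10. LCN2, an iron-withholding lipocalin, was at 116 to 126 CPM in the controls, 280 to 360 CPM with FOSL1sh3 and 202 to 236 CPM with FOSL1sh10, and was higher with FOSL1sh3 by 0.53 (SE 0.14, adjusted p = 0.0159, edgeR). At an unadjusted p under 0.05 in edgeR 7 of the list were higher and 2 lower, and DESeq2 called 7 higher and 1 lower. The serum amyloid genes and NNMT, a methyltransferase of nicotinamide, were higher with FOSL1sh10 and are given with the unequal genes.

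Cytokines and regulators of NF-kB had fewer calls. NF-kB is the factor that carries inflammatory signals to many of these genes. Of 20 cytokines and chemokines, 4 were higher and 1 (IL1RN, above) lower, with list medians of -0.11 for FOSL1sh3 and 1.26 for FOSL1sh10. Of the 4 higher, 2 (IL32 and CCL20) were shared-response genes, while IL6 and CSF1 had overlapping libraries. Log2 fold changes of IL6 and CSF1 were 0.28 and -0.01 with FOSL1sh3 and 3.01 and 1.86 with FOSL1sh10. IL32, a cytokine of epithelial and immune cells, was at 44.1, 31.8 and 37.9 CPM in GFPsh, 70.5, 45.9 and 52.4 CPM with FOSL1sh3, and 81.4, 100 and 90.9 CPM with FOSL1sh10. CCL20, which attracts CCR6-bearing cells, was low throughout, at 0.690 to 1.32 CPM in the controls and 1.64 to 4.56 CPM with the hairpins, and its call ended in 7 of the alternatives, without any 1 GFPsh library among them (1.18 to 1.58). Of 16 NF-kB subunits and feedback genes, 4 were higher and none lower: RELB by 0.73 (SE 0.15), TNFAIP2 by 0.65 (SE 0.14), BCL3 by 0.61 (SE 0.17) and NFKB1 by 0.58 (SE 0.16). RELB was higher with FOSL1sh10 (hairpin difference -0.72, SE 0.16, adjusted p = 0.00747) and TNFAIP2 with FOSL1sh3 (0.73, SE 0.15, adjusted p = 0.00474, edgeR). The cytokine calls higher were 7 with DESeq2 or no filter and 2 without GFPsh replicate 1 or 3 or FOSL1sh10 replicate 2. The NF-kB calls were 1 without GFPsh replicate 1, where TNFAIP2 (0.60), BCL3 (0.54) and NFKB1 (0.50) lost theirs, and 2 without FOSL1sh10 replicate 1 or 2. At an unadjusted p under 0.05 in edgeR, 8 NF-kB genes were higher and 0 lower, and DESeq2 called 6 higher and 0 lower.

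Interferon-stimulated genes were higher in part. Of 33 tested, 10 were higher and none lower, 9 of them shared-response genes, with list medians of 0.12 for FOSL1sh3 and 0.75 for FOSL1sh10. ISG15, a ubiquitin-like protein, was at 369, 423 and 279 CPM in GFPsh, 625, 489 and 595 CPM with FOSL1sh3, and 756, 694 and 675 CPM with FOSL1sh10. IFITM3, which blocks entry of enveloped viruses, was at 413 to 497 CPM in the controls and 566 to 885 CPM in the hairpin libraries. IFITM1, IFITM2 and IFI27 changed by 1.63 (SE 0.34), 0.90 (SE 0.15) and 0.77 (SE 0.14). The IFITM genes are close copies of each other, and IFITM1 and IFITM2 overlap in the annotation, so reads may be split between them. The call of IFITM3 ended without GFPsh replicate 2 or 3 (0.68 and 0.69) and that of IFITM1 without GFPsh replicate 1 (1.45). At an unadjusted p under 0.05 in edgeR 16 of the list were higher and 1 lower, and DESeq2 called 10 higher and 0 lower.

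Genes of antigen presentation to T cells gave 6 calls higher and none lower among 19 tested, with medians of 0.10 for FOSL1sh3 and 0.82 for FOSL1sh10. Of the 6, 5 were shared-response genes. CD74 had overlapping libraries, with log2 fold changes of -0.07 with FOSL1sh3 and 2.22 with FOSL1sh10. HLA-B, a class I heavy chain, was at 324, 268 and 319 CPM in GFPsh, 473, 415 and 499 CPM with FOSL1sh3, and 552, 585 and 612 CPM with FOSL1sh10. TAPBP, which loads peptides on class I, changed by 0.60 (SE 0.14) and HLA-C by 0.55 (SE 0.11). PSMB9, an immunoproteasome subunit, was at 44.1 to 48.0 CPM in the controls, 50.9 to 61.3 CPM with FOSL1sh3 and 104 to 116 CPM with FOSL1sh10. Reads of the HLA genes can be exchanged among alleles and copies. Without GFPsh replicate 3 the calls numbered 3, with those of HLA-C (0.52) and TAPBP (0.57) among the ones that ended. At an unadjusted p under 0.05 in edgeR 11 of the list were higher and 0 lower, and DESeq2 called 6 higher and 0 lower.

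Keratins and squamous genes, which mark stratified rather than biliary epithelium, were 7 higher and 1 lower of 25 tested (median 0.37). The 7 higher were shared-response genes. KLK10, the lower one, had overlapping libraries, with log2 fold changes of -0.33 with FOSL1sh3 and -1.12 with FOSL1sh10. KRT6A was at 467, 486 and 394 CPM in GFPsh, 526, 731 and 546 CPM with FOSL1sh3, and 789, 829 and 766 CPM with FOSL1sh10. Its near copy KRT6B was at 2.65 to 5.10 CPM in the controls, 7.08 to 11.96 CPM with FOSL1sh3 and 15.8 to 24.7 CPM with FOSL1sh10, and reads may be split between the pair. S100A9, a calcium-binding protein of inflamed squamous epithelium, was at 0.690, 0 and 0.441 CPM in the controls, at 2.57 to 2.93 CPM with FOSL1sh3 and 5.40 to 6.85 CPM with FOSL1sh10. No fold against the control is given for S100A9, whose control libraries lay near the level of 3 counts (0.283 to 0.435 CPM). Of 24 biliary and gut markers, KRT7, the duct keratin, was higher by 0.59 (SE 0.12), and DPP4, a brush border peptidase, was lower, at 16.6 to 29.6 CPM in the controls and 4.62 to 12.2 CPM with the hairpins. That list had 2 calls higher and 3 lower, the latter being CEACAM6, DPP4 and BARX2. Of the 2 higher, MUC1 had overlapping libraries, with log2 fold changes of 0.88 with FOSL1sh3 and 0.10 with FOSL1sh10. The calls of KRT6A and KRT7 ended without GFPsh replicate 3 (0.53) and without GFPsh replicate 2 (0.55).

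Matrix and adhesion genes included known AP-1 targets. Of 22 genes of plasminogen activation and matrix proteolysis, 6 were higher and none lower, but 3 of the 6 (PLAU, PLAUR and CTSD) had overlapping libraries. PLAT, the tissue plasminogen activator, was at 91.5, 90.1 and 99.1 CPM in GFPsh, 163, 195 and 184 CPM with FOSL1sh3, and 198, 221 and 227 CPM with FOSL1sh10. All 6 hairpin libraries were above the highest control. ADAMTSL5, an ADAMTS-like matrix protein, changed by 1.55 (SE 0.30). Of 20 integrins and laminins 1 was called higher and 2 lower: ITGB4, the beta chain of the laminin receptor, was higher, while its partner ITGA6 changed by -0.52 (SE 0.15) and the linked collagen COL17A1 by -0.65 (SE 0.12). The ITGA6 call ended in 9 of the alternatives, without any 1 GFPsh library among them (-0.57 to -0.47). Of 21 epithelial junction genes 1 was called higher and 1 lower: JUP, plakoglobin, changed by 0.59 (SE 0.13) and PKP2, a desmosomal plakophilin, by -0.76 (SE 0.16). Both calls ended without GFPsh replicate 2 (0.53 and -0.63). Of the matrix list, 8 were higher and 1 lower at an unadjusted p under 0.05 in edgeR, and DESeq2 called 6 higher and 0 lower.

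Mitochondrially encoded genes were lower by 5 calls of 13, with none higher, and all 5 encode subunits of complex I. MT-ND1 and MT-ND4, which also encode complex I subunits, were not called. List medians were -0.08 for FOSL1sh3 and -0.44 for FOSL1sh10. MT-ND5 was at 877, 1035 and 1058 CPM in GFPsh, 561, 521 and 598 CPM with FOSL1sh3, and 427, 494 and 475 CPM with FOSL1sh10. MT-ND4L, MT-ND3 and MT-ND6 changed by -1.22 (SE 0.16), -0.88 (SE 0.15) and -0.59 (SE 0.16). MT-ND2 was called but overlapped between groups, and MT-ND4L shares sequence with MT-ND4. The MT-ND6 call ended without any 1 GFPsh library (-0.66 to -0.47). With the GC and length trend removed (below) the list had 3 calls. At an unadjusted p under 0.05 in edgeR 7 of the list were lower and 0 higher, and DESeq2 called 5 lower and 0 higher. Of 38 nuclear genes of oxidative phosphorylation, ATP5MC1, a subunit of the ATP synthase ring, alone was called, at 351 to 394 CPM in the controls and 505 to 681 CPM with the hairpins.

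Other named genes came from the remaining lists or were among the genes with the highest CPM. GPX4, the selenoprotein that removes lipid peroxides, was at 744, 715 and 720 CPM in GFPsh, 1140, 990 and 1105 CPM with FOSL1sh3, and 1012, 1025 and 1155 CPM with FOSL1sh10. LTC4S, which makes leukotriene C4, changed by 1.44 (SE 0.30), and PTGS1, the constitutive cyclooxygenase, by -0.99 (SE 0.19). CEBPB, a bZIP factor of inflammation and stress, changed by 0.77 (SE 0.12), PHGDH, the first enzyme of serine synthesis, by 0.95 (SE 0.17), and SLC7A5, an amino acid carrier, by 0.56 (SE 0.12). VEGFA, the endothelial growth factor, changed by 0.73 (SE 0.15), as the sole call among 27 hypoxia and glycolysis genes. RPS24 was the sole call among 36 ribosomal protein genes (-0.75, SE 0.14). Of 25 YAP and TGF-beta targets 4 were called higher, LTBP3 and PMEPA1 among them, and 3 of the 4 were shared-response genes. Of 25 genes of the endoplasmic reticulum stress and amino acid response 3 were called higher (PHGDH, CEBPB and SLC7A5). Of 19 heat shock and immediate early genes 3 were called lower (HSPH1, HSP90AA1 and KLF2). The calls of LTBP3 (0.43 to 0.61), PMEPA1 (0.37 to 0.46) and HSPH1 (-0.69 to -0.59) ended without any 1 GFPsh library. Among 14 genes of ERBB and MET signalling BTC alone was called, and among 23 of NRF2 and aldehyde metabolism AKR1C3 higher and ALDH3A1 lower. The BTC call ended without any 1 GFPsh library (1.09 to 1.52), and that of AKR1C3 without GFPsh replicate 1 or 2 (0.63 and 0.55). Of 18 selenoproteins and eicosanoid enzymes 3 were called higher and 3 lower. Among the lower ones only PTGS1 was a shared-response gene, while SELENOT and GPX3 had overlapping libraries. Of 15 mesenchymal genes 2 were called higher and 1 lower, and only L1CAM was a shared-response gene. THBS1 changed by 0.07 with FOSL1sh3 and 0.77 with FOSL1sh10, and TNC by -1.46 and 0.31. None of 5 nuclear long RNAs was called with edgeR or DESeq2. In edgeR 1 had an unadjusted p under 0.05, against 2753 of all 12814 genes tested. Of the lower genes with the highest CPM, the caveolae protein CAV1 was at 695 to 782 CPM in the controls, 444 to 577 CPM with FOSL1sh3 and 295 to 339 CPM with FOSL1sh10. The thioredoxin-like TXNDC17 changed by -0.59 (SE 0.13), with its call ended without GFPsh replicate 2 (-0.53). HSP90AA1, the inducible HSP90 chaperone, and the RNA-binding HNRNPA2B1 had small changes of -0.45 (SE 0.13) and -0.42 (SE 0.12), and both calls ended without any 1 GFPsh library (-0.50 to -0.37 for HSP90AA1, -0.47 to -0.39 for HNRNPA2B1). HNRNPA2B1 shares exon sequence with CBX3 on the opposite strand. The calls of LTC4S (without GFPsh replicate 2, 1.16, or 3, 1.43) and SLC7A5 (without GFPsh replicate 3, 0.44) ended too. The plot of the lists sets all counts beside the shares of all genes tested.

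**Figure D2:**
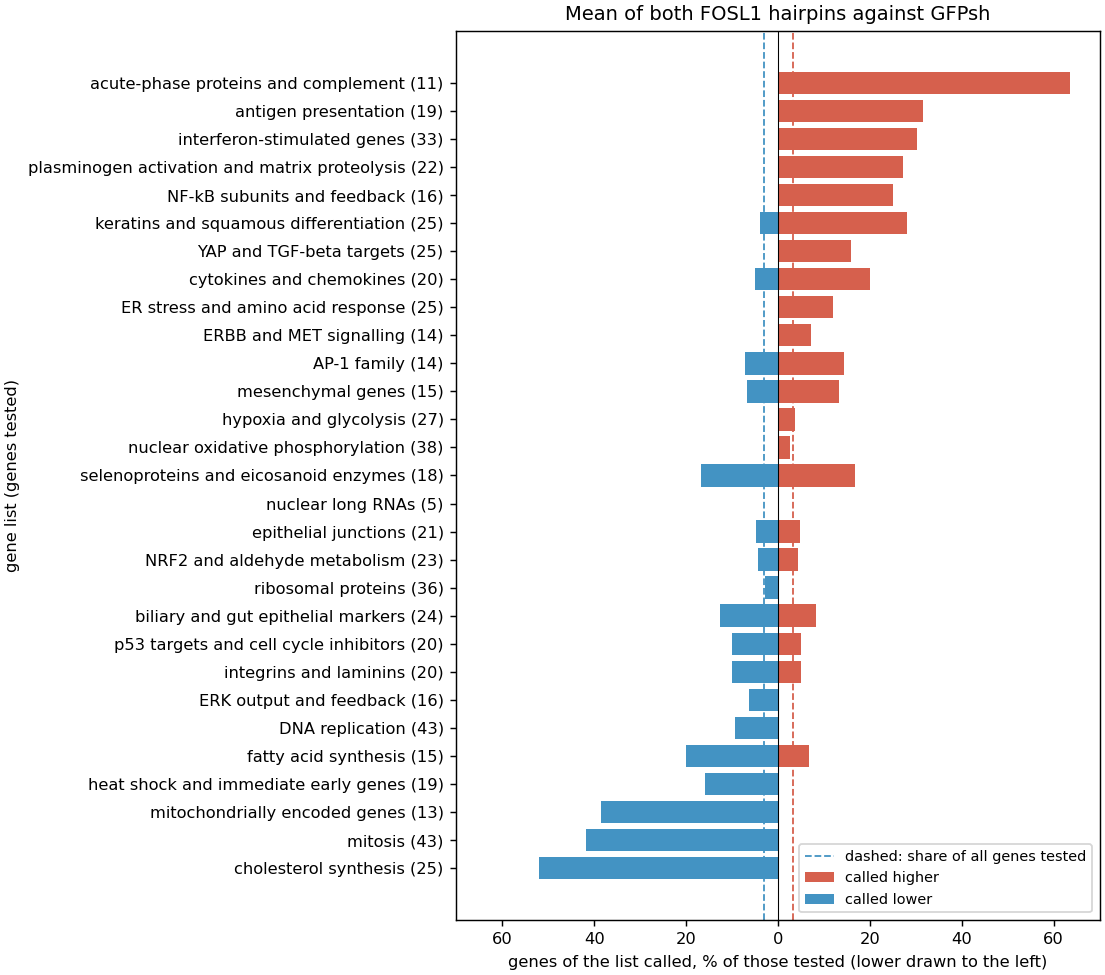
Share of the tested genes of each list that were called higher (right) or lower (left) in the mean of both hairpins against GFPsh, in percent, for lists with at least 5 genes tested. Dashed lines mark the shares of all genes tested, 3.25% higher and 2.97% lower; cholesterol synthesis (13 of 25 lower) and acute-phase genes (7 of 11 higher) lie at the ends.

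The difference between the 2 hairpins was not itself a criterion of the rule, and it was tested. The rule still limits it, because both hairpins had to lie on the same side of the controls. The shares of selected genes below partly reflect that selection and are a description. Of all genes tested, 1633 (12.7%) differed between FOSL1sh3 and FOSL1sh10 in edgeR's test (adjusted p under 0.05). Of the 1238 genes that met the rule 98 (7.92%) did. Of the 591 shared-response genes 92 (15.6%) did, 50 with the larger change under FOSL1sh3 and 42 under FOSL1sh10. Of the 48 higher genes that differed, 29 had the larger change with FOSL1sh10 and 19 with FOSL1sh3. Of the 44 lower genes, 13 had it with FOSL1sh10 and 31 with FOSL1sh3, and these counts were not tested against each other. The log2 fold changes of the hairpins lay within 0.2 of each other in 210 of the 591 (35.5%), close to the 35.2% of all genes tested. Without FOSL1sh10 replicate 2 the number that differed was 52. The plot of the hairpins' fold changes shows how far the 92 lie from equal size.

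**Figure D3:**
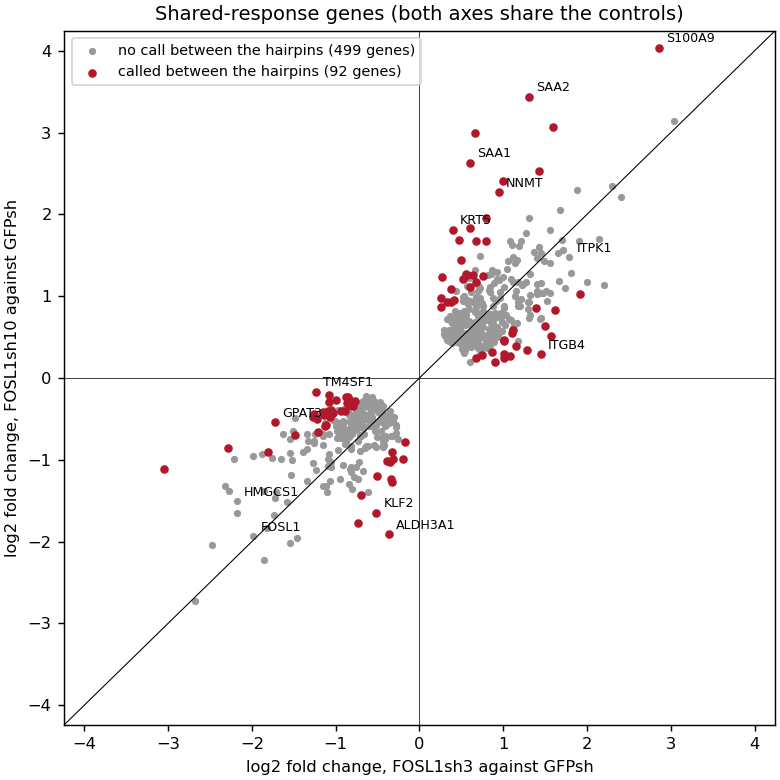
Log2 fold change with FOSL1sh3 (horizontal) and FOSL1sh10 (vertical) against GFPsh for the 591 shared-response genes, 1 point each, with the 92 that differed between the hairpins in red. The rule places all points in 2 quadrants and both axes share the controls, so their slope is no result; distance from the diagonal, largest for SAA1 and SAA2 among the labelled genes, is the hairpin difference.

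The 5 higher genes with the smallest p between the hairpins were SAA1, SAA2, KRT5, NNMT and ITGB4. SAA1, the acute-phase serum amyloid A (chromosome 11, 18266174 to 18269977), was at 162, 167 and 148 CPM in GFPsh, 237, 199 and 288 CPM with FOSL1sh3, and 1002, 968 and 989 CPM with FOSL1sh10. The groups did not overlap, and FOSL1sh3 was below FOSL1sh10 by 2.03 log2 units (SE 0.15, adjusted p = 3.29e-07, edgeR). Its neighbour and near copy SAA2 was at 6.90 to 10.3 CPM in the controls, 16.4 to 26.0 CPM with FOSL1sh3 and 93.0 to 102 CPM with FOSL1sh10, and reads may be split between the pair. KRT5, the basal keratin, was at 115 to 131 CPM in the controls, 156 to 163 CPM with FOSL1sh3 and 387 to 453 CPM with FOSL1sh10. NNMT had 170 to 203 CPM in the controls, 326 to 422 CPM with FOSL1sh3 and 841 to 981 CPM with FOSL1sh10. ITGB4 went the other way, with 183 to 209 CPM in the controls, 475 to 588 CPM with FOSL1sh3 and 236 to 249 CPM with FOSL1sh10.

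Of the lower genes, TM4SF1, a tetraspanin-like surface protein, was at 214, 221 and 218 CPM in GFPsh, 103, 99.5 and 75.6 CPM with FOSL1sh3, and 181, 209 and 191 CPM with FOSL1sh10. Its nearest libraries were 0.03 log2 units apart. GPAT3, an enzyme of triglyceride synthesis, was at 28.6 to 32.5 CPM in the controls, 8.72 to 9.66 CPM with FOSL1sh3 and 17.5 to 23.2 CPM with FOSL1sh10. SYNJ2, a phosphoinositide phosphatase, had 40.7 to 50.2 CPM, 19.3 to 21.8 CPM and 34.9 to 36.6 CPM in the same order. ALDH3A1, an aldehyde dehydrogenase, was low with FOSL1sh10, at 1.81 to 3.77 CPM, while 2 of its FOSL1sh3 libraries (9.13 and 8.78 CPM) lay just under the lowest control of 9.23 CPM. That call against the control ended without GFPsh replicate 3 (-1.03).

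**Figure D4:**
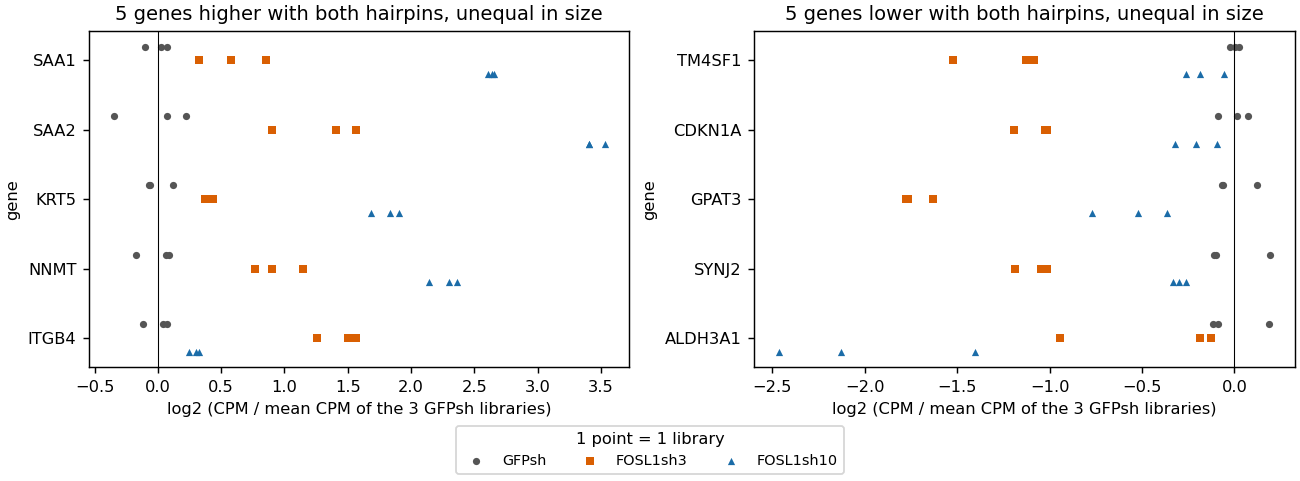
Log2 ratio of each library's CPM to the mean of the 3 GFPsh libraries for the 10 shared-response genes with the smallest p between the hairpins, 5 higher (left) and 5 lower (right). Each point is 1 library; SAA1 stands at 968 to 1002 CPM with FOSL1sh10 and 199 to 288 CPM with FOSL1sh3.

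At the edge of the rule, genes just inside and just outside had near-equal values. STAT6, FNDC3B and IWS1 were the last inside, with the nearest hairpin library level with the nearest control (60.3 CPM for STAT6, 27.2 CPM for FNDC3B and 78.5 CPM for IWS1 on both sides). ALKBH7, the plasmalogen enzyme gene PEDS1 and the kinase gene STK17B were the first outside. For ALKBH7 the lowest hairpin library was at 57.8 CPM and the highest control at 57.9 CPM.

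Base composition differed between the 2 directions, although the rule did not use it. Median GC content of the longest transcript was 55.6% for the 326 higher genes and 42.5% for the 265 lower genes, against 48.4% over all genes tested. The quartiles of the lower genes (39.4% to 47.3%) lay under those of the higher genes (50.2% to 60.7%). Over all chromosomes, higher and lower genes numbered 326 and 265 of 12814 tested. The chromosomes given here were picked by no set rule. Higher and lower genes numbered 27 and 6 of 882 tested on chromosome 19 and 14 and 1 of 319 on chromosome 22. They numbered 9 and 1 of 131 on chromosome 21 and 13 and 8 of 589 on chromosome 16. On chromosome 20 they numbered 18 and 6 of 353, and on chromosome 17 they numbered 30 and 11 of 817. They numbered 21 and 18 of 674 on chromosome 6, 12 and 15 of 454 on chromosome 4 and 1 and 7 of 232 on chromosome 13. Control levels had medians of 17.0 CPM for higher and 44.4 CPM for lower genes, against 14.7 CPM over all. When a smooth trend on GC content and length was removed from each library, a check chosen after seeing the data, 649 genes were called, and 392 of the 591 (66.3%) were still called. With that trend removed, cholesterol synthesis had 14 calls lower, mitosis 16, acute-phase genes 7 higher and keratins 7, while antigen presentation had 4 and the NF-kB list 3. HLA-C (0.39), JUP (0.43), SLC7A5 (0.39), ITGA6 (-0.45), STARD4 (-0.75), MT-ND6 (-0.44) and HSP90AA1 (-0.37) were among the named genes that lost their call, each with its direction kept.

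**Figure D5:**
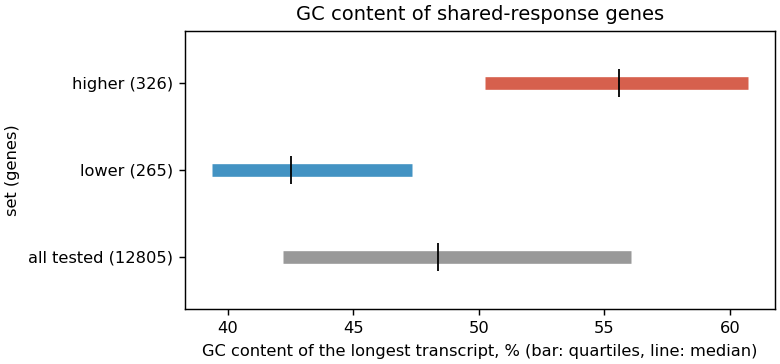
GC content of the longest transcript, in percent, for the 326 higher and 265 lower shared-response genes and for all tested genes with a transcript. Bars span the quartiles and the black line is the median, 55.6%, 42.5% and 48.4%.

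Promoters were searched for 7 short motifs on both strands, from 250 bases before to 50 after the RefSeq start (GRCh38.p14), in protein-coding genes apart from those of 1 chromosome not used here. The table held a promoter for 240 of 293 higher, 207 of 239 lower and 9257 of 10778 tested genes. The AP-1 element TGANTCA was in 2.92% of higher, 4.83% of lower and 4.48% of tested promoters, and in 7.76% of all promoters of the table. The motif TTTGAA, known from promoters of cell cycle genes, was in 19.3% of lower, 7.08% of higher and 9.47% of tested promoters, and in 15.4% of the table. CCAAT was in 45.9%, 35.4% and 37.2% in the same order, and in 35.7% of the table. A motif bound by NF-kB, GGGAA followed by any 3 bases and CC, was in 12.9% of higher, 8.21% of lower and 7.99% of tested promoters, and in 6.92% of the table. Median GC content of these promoters was 66.3%, 63.3% and 65.3% for higher, lower and tested genes, and its part in the shares was not tested. For higher, lower and tested genes and the table, TGACGTCA was in 3.75%, 3.38%, 3.46% and 1.98%, and TCACNCCAC in 1.25%, 1.45%, 1.08% and 1.15%. GAAA, any 2 bases and GAAA, a motif of interferon responses, was in 4.17%, 2.42%, 2.71% and 3.65%. A match shows letters, not a site in use.

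Of the 24 genes with the widest gaps above the limit of 30 counts, 17 had a promoter in the table, and only that of IL1RN held TGANTCA, shown in capitals (chr2:113117721-113118020, plus strand, first base 223 before the start).
IL1RN: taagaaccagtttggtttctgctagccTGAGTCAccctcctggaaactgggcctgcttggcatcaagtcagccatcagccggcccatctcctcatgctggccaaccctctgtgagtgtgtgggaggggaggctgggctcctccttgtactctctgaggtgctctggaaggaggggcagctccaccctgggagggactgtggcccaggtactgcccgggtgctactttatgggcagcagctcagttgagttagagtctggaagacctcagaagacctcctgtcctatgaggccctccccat
The next promoters were picked after the shares were seen, to show the matches in genes whose values stand above. For the lower mitotic genes SPC25 (chr2:168890381-168890680, minus strand) and HMMR (chr5:163460382-163460681, plus strand), TTTGAA is in capitals. HMMR holds 2 copies in tandem close to its start, and SPC25 has 1 at its start and 1 at the far end.
SPC25: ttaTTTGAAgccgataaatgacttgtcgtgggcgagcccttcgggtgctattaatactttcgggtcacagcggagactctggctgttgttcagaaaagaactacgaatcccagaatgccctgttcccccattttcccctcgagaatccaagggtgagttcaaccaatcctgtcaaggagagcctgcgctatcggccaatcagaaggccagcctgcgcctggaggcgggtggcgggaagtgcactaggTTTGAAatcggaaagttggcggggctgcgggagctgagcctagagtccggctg
HMMR: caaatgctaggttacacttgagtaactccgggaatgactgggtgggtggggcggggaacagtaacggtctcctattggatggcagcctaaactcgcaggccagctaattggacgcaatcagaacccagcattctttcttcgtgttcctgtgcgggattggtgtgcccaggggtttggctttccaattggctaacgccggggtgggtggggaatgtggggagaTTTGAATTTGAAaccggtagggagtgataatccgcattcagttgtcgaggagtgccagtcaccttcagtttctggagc
For the higher genes CALML5 (chr10:5499521-5499820, minus strand) and LCN2 (chr9:128149203-128149502, plus strand), capitals mark the GGGAA motif on either strand. The LCN2 promoter also holds the AP-1 element TGANTCA, left in small letters, as does that of the lower gene ELOVL5, not shown.
CALML5: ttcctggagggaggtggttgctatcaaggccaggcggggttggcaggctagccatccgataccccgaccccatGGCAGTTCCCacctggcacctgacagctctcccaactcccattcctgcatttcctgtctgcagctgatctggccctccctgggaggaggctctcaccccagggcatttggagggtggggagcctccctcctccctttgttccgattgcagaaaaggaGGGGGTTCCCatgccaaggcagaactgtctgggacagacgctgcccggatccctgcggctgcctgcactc
LCN2: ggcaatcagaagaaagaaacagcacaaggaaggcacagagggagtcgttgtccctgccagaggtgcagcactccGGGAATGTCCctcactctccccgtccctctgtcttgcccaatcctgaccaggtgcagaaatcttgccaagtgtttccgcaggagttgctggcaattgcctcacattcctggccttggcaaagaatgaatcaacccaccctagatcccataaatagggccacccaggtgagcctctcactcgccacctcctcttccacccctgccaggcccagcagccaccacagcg

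Shared-response genes were in places next to each other on the chromosome. Taking tested genes in order of their start, 45 neighbouring pairs were both shared-response genes. Of these pairs 22 had both genes higher, 11 both lower and 12 opposite directions. Some lay far apart, with 438088 bases between BMP4 and CDKN3. The number of pairs that gene order alone would give was not worked out. On chromosome 12 KRT6B, KRT6A and KRT5 were consecutive tested genes, all higher, and on chromosome 11 IFITM2, IFITM1 and IFITM3, as well as SAA2 and SAA1. The lower pair CAV2 and CAV1 on chromosome 7 changed by -0.41 (SE 0.12) and -0.86 (SE 0.12). LEPROT and LEPR, which overlap on chromosome 1, went in opposite directions, chosen here after their values were seen. LEPROT, an endosomal protein, was at 98.4 to 115 CPM in the controls and 182 to 250 CPM with the hairpins, and LEPR, the leptin receptor, at 2.36 to 4.28 CPM and 0.821 to 2.14 CPM. Of the 591 genes, 99 shared an exon with another gene whose counts were not negligible beside theirs (at least 0.1 times as many). Their values are uncertain because the counting did not use strand. The share over all genes tested was not counted.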

How the data were processed

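Gene expression was measured by MARS-seq in 9 EGI-1 libraries, 3 per group, with groups taken from the sample titles. The authors deposited raw counts per gene, whole numbers that were not normalized. Per the file headers, counts came from featureCounts 1.6.0 over exons of GENCODE release 28 with no strand option, and per the submitters' processing notes reads were aligned to hg38 with STAR 2.5.3a. The sources used here do not state whether molecular identifiers were collapsed.

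Counts were fitted with edgeR 4.0.16 in R 4.3.3: genes passed its default filter on low counts (at least 10, and 15 in total), scaling was by TMM, and 1 quasi-likelihood fit took all 9 libraries with the group as term. The contrasts set the mean of the FOSL1 hairpins against the control and the FOSL1 hairpins against each other, adjusted by Benjamini-Hochberg over all 12814 genes. CPM values use totals over these genes, adjusted by the TMM factors, and each SE divides the log2 fold change by the root of the F statistic. The common biological coefficient of variation was 16.4%. At the library totals, 3 counts, the upper limit for a count of 0, correspond to 0.283 to 0.435 CPM, for counting error only. The script was tested on simulated data.

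The genes and the 32 gene lists were chosen with earlier results of these data known. Named genes were FOSL1 and, among shared-response genes with a symbol and a mean of at least 30 counts, the 12 widest gaps and 6 highest CPM in each direction, the 5 smallest p between hairpins and the 5 largest even changes (within 0.2) in each direction. Up to 4 genes per list and 3 genes on each side of the rule's edge were added; some of these genes are not reported here. Alternatives were library totals, DESeq2 1.42.0, no filter, a strict filter, a replicate block, a GC and length trend removed, and each library left out.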

Additional observations from a re-analysis of the deposited data

Results flagged for a closer look

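Of the 113 genes chosen by the rule for named genes, 27 shared-response genes changed by different amounts with the 2 hairpins in edgeR's quasi-likelihood test, and 26 of them are given here (adjusted p from 3.29e-07 to 0.042 over all genes tested). The values below are the log2 fold change with FOSL1sh3 minus that with FOSL1sh10. All 27 lay on the same side of the control in all 6 hairpin libraries, by the rule.

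Higher genes with the larger change under FOSL1sh10 were SAA1 (-2.03), SAA2 (-2.13), KRT5 (-1.41), NNMT (-1.32), S100A9 (-1.18), KRT6B (-1.10), PSMB9 (-0.97), RELB (-0.72), IL32 (-0.69) and PHGDH (-0.62). They include acute-phase genes, keratins and genes of antigen presentation and NF-kB. Higher genes with the larger change under FOSL1sh3 were ITGB4 (1.16), FOS (0.88), JUNB (0.76), TNFAIP2 (0.73) and LCN2 (0.53).

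Lower genes with the larger change under FOSL1sh3 were GPAT3 (-1.19), TM4SF1 (-1.07), TMEM158 (-0.91), CDKN1A (-0.87), INSIG1 (-0.79), SYNJ2 (-0.79) and CCNA2 (-0.69). Lower genes with the larger change under FOSL1sh10 were ALDH3A1 (1.54), KLF2 (1.13), CAV1 (0.70) and COL17A1 (0.68). FOSL1 itself differed by -0.05 (SE 0.19) between the hairpins.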

How the results depend on the processing

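The number of genes called in the mean contrast was 763 with library totals alone, 957 with DESeq2, 989 with no filter, 768 with the strict filter and 649 with the GC and length trend removed, against 797. Shared-response genes numbered 532, 661, 607, 563 and 482, against 591. Correlations of deviations from group means ran from -0.12 to 0.18 between same-numbered libraries and from -0.17 to 0.16 between differently numbered ones. These ranges cannot settle whether replicate numbers pair the libraries. The replicate block gave 812 calls and 564 shared-response genes, of which 546 (92.4%) were among the 591.

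Leaving out 1 library in turn moved counts most. Calls ranged from 312 to 1002, with 165 to 469 higher and 140 to 533 lower; they were 316, 454 and 312 without GFPsh replicates 1, 2 and 3, and 529 and 524 without FOSL1sh10 replicates 1 and 3. Separated genes ranged from 1457 to 2095, 793 to 1109 above and 659 to 986 below the controls. The rule is easier to meet with fewer libraries. Shared-response genes ranged from 277 to 695, with 153 to 362 higher and 120 to 333 lower, and those that differed between hairpins from 52 to 129.

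Of the 113 named genes, 70 kept their call in every setting, 43 lost it in at least 1, and none reversed. DNA replication held 8 calls lower with no filter and 2 with library totals. The median log2 fold change of all genes was -0.01 with TMM, 0.01 with library totals and -0.01 with DESeq2. Depth limits low genes such as S100A9 and CCL20. In the 83 named shared-response genes with no call between hairpins, the SE of that difference was 0.13 to 0.39.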
